A study of Homo sapiens with 8 samples.

Results

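WFDC2 and 9 other genes of secreted airway defence proteins, 10 of the 59050 gene symbols in the count tables, were examined in xenograft tumours of H2122, an established cell line from a human lung cancer. The genes were WFDC2, SLPI, PI3, LCN2, PIGR, BPIFB1, SCGB1A1, SCGB3A1, LTF and LYZ. They were selected by symbol and with the parental against knockout comparison of these data in view, WFDC2 for its loss in the knockout, so their values in that comparison are given as a description without p-values. RNA was sequenced from 4 parental tumours, whose genotype is labelled WT, and from 4 tumours labelled SMARCA4 KO. Both groups carried the H2122 background and both had received vehicle. SMARCA4 is the gene of an ATPase that drives SWI/SNF chromatin remodelling, and the series title places the comparison in the setting of anti-tumour immunity and STING. The host animal, its remaining immune cells and whether the knockout line was 1 clone or a pool are not given in the sources used here. The labels number the tumours within a group but do not say that each came from its own animal, so the statistics measure only the spread between these 8 tumours.

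The mucus layer of the airway carries proteins that epithelial cells secrete to restrain microbes and to shield tissue from proteases. Small proteins with whey acidic protein domains, SLPI and PI3 (elafin), inhibit neutrophil elastase, and WFDC2, also known as HE4, shares that domain and is a serum marker of several carcinomas. LCN2 binds bacterial siderophores and so withholds iron, LTF binds iron itself, and LYZ cleaves bacterial cell walls. BPIFB1 is a secreted protein of the BPI fold family, PIGR carries polymeric IgA and IgM across epithelium, and SCGB1A1 and SCGB3A1 are secretoglobins of club and other secretory cells.

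Promoter sequences are shown for the 4 genes that had lower mean levels in the knockout tumours, passed the low-count filter and had a window in the RefSeq table (GRCh38.p14). Each window runs 5′ to 3′ on the strand of the gene, from 250 bases before to 50 bases after the RefSeq start. Windows were matched for 6 of the 10 genes, the others being SCGB3A1 and LTF. Capitals mark matches to TGANTCA (AP-1), GGGA and CC separated by any 4 bases (NF-kB), TTGCNNAA (C/EBP), TGTTTAC (FOXA) and TATAAA, searched on both strands.
WFDC2 (chr20:45469503-45469802, plus strand): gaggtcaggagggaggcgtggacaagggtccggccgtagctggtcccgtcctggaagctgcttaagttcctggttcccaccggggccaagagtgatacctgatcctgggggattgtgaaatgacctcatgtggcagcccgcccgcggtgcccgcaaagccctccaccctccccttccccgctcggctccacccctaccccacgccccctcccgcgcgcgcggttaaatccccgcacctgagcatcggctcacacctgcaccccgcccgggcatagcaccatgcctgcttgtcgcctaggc
LCN2 (chr9:128149203-128149502, plus strand): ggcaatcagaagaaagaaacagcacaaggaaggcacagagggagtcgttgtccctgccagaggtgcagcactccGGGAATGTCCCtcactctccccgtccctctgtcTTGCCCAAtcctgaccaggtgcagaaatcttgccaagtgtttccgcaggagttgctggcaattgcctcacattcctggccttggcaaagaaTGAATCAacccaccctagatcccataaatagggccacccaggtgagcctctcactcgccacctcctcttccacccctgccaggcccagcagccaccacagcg
BPIFB1 (chr20:33282964-33283263, plus strand): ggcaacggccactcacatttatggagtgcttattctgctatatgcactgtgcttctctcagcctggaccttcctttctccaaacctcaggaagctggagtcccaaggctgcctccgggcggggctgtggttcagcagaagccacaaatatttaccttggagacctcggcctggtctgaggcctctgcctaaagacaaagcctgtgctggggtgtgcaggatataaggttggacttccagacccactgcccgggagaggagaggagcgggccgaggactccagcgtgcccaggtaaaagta
PIGR (chr1:206946417-206946716, minus strand): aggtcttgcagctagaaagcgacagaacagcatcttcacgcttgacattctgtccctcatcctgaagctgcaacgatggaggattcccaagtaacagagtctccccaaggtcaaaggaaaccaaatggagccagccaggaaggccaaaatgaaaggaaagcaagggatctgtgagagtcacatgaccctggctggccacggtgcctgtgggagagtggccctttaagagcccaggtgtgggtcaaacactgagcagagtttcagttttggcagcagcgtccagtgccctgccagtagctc
The LCN2 window held an NF-kB match at -176 to -167 with an overlapping match at -175 to -166 on the other strand, a C/EBP match at -143 to -136 and an AP-1 match at -52 to -46, counted from the base before the start as -1. None of the 5 motifs was found in the windows of WFDC2, BPIFB1 and PIGR. Of 35097 promoter windows of the same length, 7.71% held the AP-1 motif, 25.6% the NF-kB motif, 10.5% the C/EBP motif, 3.42% the FOXA motif and 11.5% TATAAA. The WFDC2 window had 22 CG dinucleotides, more than 62.3% of all windows, whereas those of BPIFB1, LCN2 and PIGR had 8, 6 and 5 against a median of 14. A match is a description of letters and not evidence of binding.

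Libraries held 19785922 to 23191698 gene counts, and 79.1% to 85.2% of the reads in each file were assigned to a gene. SMARCA4 itself was at 198 to 235 CPM in parental tumours and 22.3 to 31.1 CPM in the knockout, so each library was on the side of its label. CPM is the count divided by the TMM-scaled library size in megareads. All 7 epithelial markers were expressed in both groups, summing to 7505 to 8814 CPM in parental tumours and to 6599 to 7972 CPM in the knockout. Of the 7, 2 were lower in the knockout at an edgeR adjusted p under 0.05 and 0 were higher. KRT19 went from 1060 to 526 CPM (edgeR adjusted p = 8.49e-05) and KRT7 from 1675 to 1024 CPM (adjusted p = 0.000333). Airway subtype markers were in part absent, as the club cell gene CYP2F1 and the alveolar type II genes SFTPC and SFTPA1 had no count in any tumour. Some others in these lists were expressed. The 8 club cell markers summed to 83.8 to 109 CPM over all tumours, and the 8 alveolar type II markers to 43.4 to 115 CPM. The club cell sum was mostly TSPAN8, at 74.7 to 97.8 CPM. The alveolar sum was mostly ABCA3, at 20.5 to 39.9 CPM, and SLC34A2, at 20.9 to 81.5 CPM. The labels give the cells as lung cancer and name no airway cell type.

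Of the 10 genes, 7 passed the low-count filter, and SCGB1A1, SCGB3A1 and LTF did not. In edgeR's quasi-likelihood fit over 16219 genes, 5 of these 7 had a Benjamini-Hochberg adjusted p under 0.05, hereafter a call; WFDC2, LCN2, PIGR and BPIFB1 were lower and PI3 was higher in the knockout. The same rule called 27.0% of all tested genes. The 4 knockout values lay entirely outside the parental range for 4 genes, lower for WFDC2, PIGR and BPIFB1 and higher for PI3, and the same was true of 29.3% of all tested genes. Because the comparison was in view when the genes were chosen, nothing is read from these counts. In bulk tumours, fewer cells that express a gene and less RNA per cell cannot be told apart.

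**Figure D1:**
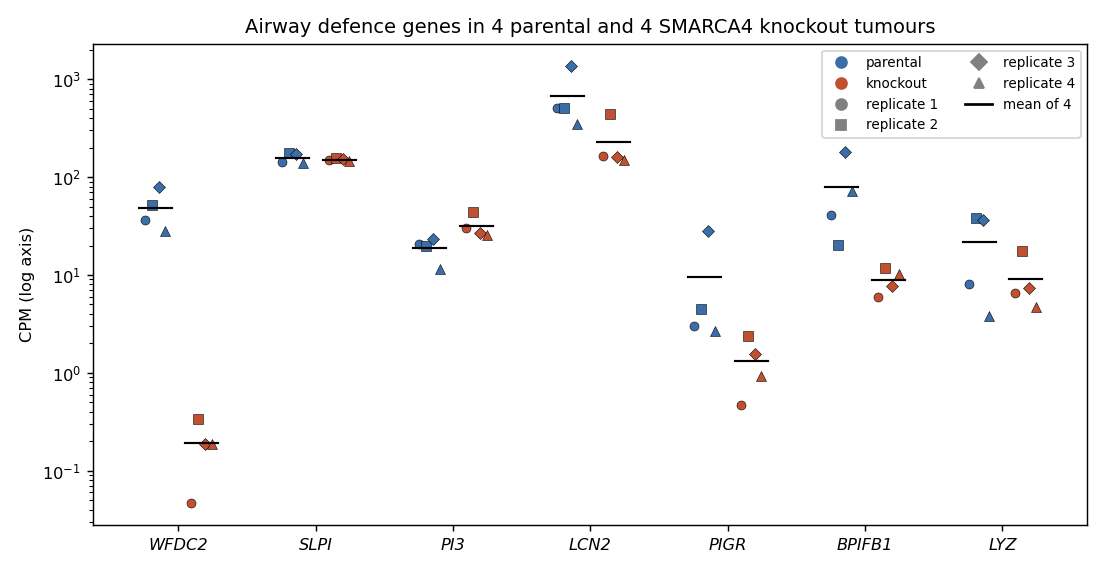
CPM on a log axis (vertical) of the 7 genes that passed the low-count filter (horizontal) in 4 parental tumours (blue) and 4 SMARCA4 knockout tumours (orange); marker shapes are replicate numbers and bars are group means. WFDC2 lies at 28.3 to 79.5 CPM in parental tumours and 0.0467 to 0.341 CPM in the knockout, SLPI sits at 140 to 174 CPM in all 8 tumours, and parental replicate 3 (diamonds) is highest for LCN2, PIGR and BPIFB1.

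Of the 3 genes of the whey acidic protein family, which lie within 295 kb of each other on chromosome 20, WFDC2 was far lower in the knockout, SLPI was near its parental level and PI3 was higher. WFDC2 (ENSG00000101443, chromosome 20, 45469706 to 45481532, plus strand, GENCODE 29 on GRCh38) gave 704, 1053, 1779 and 665 reads in the parental tumours, in the order of replicates 1 to 4, or 36.5, 51.4, 79.5 and 28.3 CPM. In knockout replicates 1 to 4 it had 1, 7, 4 and 4 counts, or 0.0467, 0.341, 0.187 and 0.187 CPM. Every parental tumour expressed the gene, every knockout tumour was close to the detection limit, and the groups were far apart. The parental mean was 48.9 ± 22.5 CPM and the knockout mean 0.190 ± 0.120 CPM (SD, n = 4 each). On the log2 scale WFDC2 was at -7.97 (SE 0.467) in knockout over parental tumours, or 251-fold lower. Leaving out any 1 tumour moved that value between -8.39 and -7.64.

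SLPI (ENSG00000124107, chromosome 20, 45252239 to 45254564, minus strand), which encodes the secretory leukocyte protease inhibitor, was near one level in all 8 tumours. It was at 144, 174, 173 and 140.0 CPM in parental replicates 1 to 4 and at 149, 157, 151 and 148 CPM in knockout replicates 1 to 4. The knockout tumours lay inside the parental range. The log2 fold change was -0.06 (SE 0.0925), with means of 158 ± 18.4 and 151 ± 3.96 CPM (SD, n = 4 each). Its spread on the log2 scale among knockout tumours, an SD of 0.0374, was smaller than that of all but 2.66% of tested genes, whose median SD was 0.155.

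PI3 (ENSG00000124102, chromosome 20, 45174876 to 45176544, plus strand), the gene of the elastase inhibitor elafin, was higher in the knockout. It was at 20.8, 19.6, 23.5 and 11.4 CPM in parental replicates 1 to 4 and at 30.6, 44.2, 27.0 and 25.4 CPM in knockout replicates 1 to 4. All knockout tumours were above all parental tumours, with parental replicate 4 the lowest and knockout replicate 2 the highest. The log2 fold change was 0.76 (SE 0.224), a 1.69-fold difference between means of 18.8 ± 5.20 and 31.8 ± 8.52 CPM (SD, n = 4 each). PI3 was no longer called without knockout replicate 1 (0.78) or without knockout replicate 2 (0.56).

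LCN2, BPIFB1 and PIGR had lower means in the knockout, with overlapping groups for LCN2. LCN2 (ENSG00000148346, chromosome 9, 128149071 to 128153455, plus strand) was at 504, 504, 1371 and 345 CPM in parental replicates 1 to 4. In knockout replicates 1 to 4 it was at 164, 440, 161 and 151 CPM. Parental replicate 3 and knockout replicate 2 stood above the rest of their groups, and knockout replicate 2 exceeded parental replicate 4, so the groups overlapped. The log2 fold change was -1.57 (SE 0.455), from 681 ± 466 to 229 ± 141 CPM (SD, n = 4 each). LCN2 lost its call without parental replicate 3, where the value was -0.98, and also without knockout replicate 1, 3 or 4, with values between -1.44 and -1.41. Without knockout replicate 2 it was -2.10.

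BPIFB1 (ENSG00000125999, chromosome 20, 33273480 to 33309878, plus strand) was at 40.5, 20.5, 181 and 72.1 CPM in parental replicates 1 to 4 and at 6.03, 11.8, 7.75 and 10.3 CPM in knockout replicates 1 to 4. Parental tumours varied 8.82-fold from lowest to highest, yet all lay above the knockout tumours. The log2 fold change was -3.13 (SE 0.567), between means of 78.4 ± 71.3 and 8.96 ± 2.57 CPM (SD, n = 4 each). BPIFB1 was called in all 8 fits that left out 1 tumour, with values from -3.45 to -2.31, the last without parental replicate 3.

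PIGR (ENSG00000162896, chromosome 1, 206928518 to 206946466, minus strand) was low in most tumours. It was at 3.004, 4.49, 27.9 and 2.68 CPM in parental replicates 1 to 4 and at 0.467, 2.39, 1.54 and 0.934 CPM in knockout replicates 1 to 4. Parental replicate 3 was several times the other parental tumours, and the highest knockout tumour lay just under the lowest parental one. The log2 fold change was -2.84 (SE 0.792), between means of 9.52 ± 12.3 and 1.33 ± 0.830 CPM (SD, n = 4 each), and -1.35 without parental replicate 3. PIGR was no longer called without knockout replicate 1 (-2.56) or without knockout replicate 4 (-2.70).

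LYZ (ENSG00000090382, chromosome 12, 69348341 to 69354234, plus strand) varied widely within both groups. It was at 8.13, 38.2, 36.8 and 3.78 CPM in parental replicates 1 to 4 and at 6.59, 17.5, 7.37 and 4.72 CPM in knockout replicates 1 to 4. Parental replicates 2 and 3 were high, replicate 1 was within the range of the knockout tumours, replicate 4 was below all of them, and the groups overlapped. The log2 fold change was -1.27 (SE 0.644), without a call, -0.85 without parental replicate 2 and -1.63, with a call, without parental replicate 4. LYZ is also a product of myeloid cells, and the summed level of 13 macrophage and leukocyte markers was 9.11, 62.2, 47.6 and 7.95 CPM in parental replicates 1 to 4 and 12.4 to 23.3 CPM in knockout tumours. All 13 markers had counts in at least 1 tumour, none of the 7 tested was called, and their part in the LYZ values was not tested. Reads of the host animal may add to such counts, as their removal is not given. The 9 skeletal muscle markers summed to 26.2 and 7.19 CPM in parental replicates 2 and 4 and to 16.1 CPM in knockout replicate 4. In the remaining tumours they summed to 0.414 to 0.888 CPM. The part of host reads in the LYZ values was not tested.

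LTF and the secretoglobin genes were at or near 0. LTF (ENSG00000012223, chromosome 3, 46435645 to 46485234, minus strand) gave 2, 4, 12 and 0 reads in the parental tumours and 0, 2, 1 and 1 in the knockout tumours, in the order of replicates 1 to 4. The groups overlapped. Pooled parental counts over pooled knockout counts, scaled by library size, gave a ratio of 4.45 with an exact 95% interval of 1.47 to 18.1 that covers counting error only. LTF and LCN2 are also stored in neutrophil granules. The 12 neutrophil markers summed to 745 to 1248 CPM in parental tumours and to 1969 to 3241 CPM in the knockout. Of these, 3 were tested, S100A8, S100A9 and S100A12, and all 3 were called higher in the knockout. Epithelia also express these S100 genes, which made up nearly all of the sums. The other 9 markers summed to 0.213 to 2.28 CPM in parental tumours and to 0.233 to 0.561 CPM in the knockout. The part of these markers in LTF and LCN2 was not tested. SCGB1A1 (ENSG00000149021, chromosome 11, 62405103 to 62423195, plus strand) had 2 counts, both in parental replicate 3, and 0 in the knockout, where a count of 0 allows up to 3 counts or 0.0354 CPM over the 4 libraries. SCGB3A1 (ENSG00000161055, chromosome 5, 180590103 to 180591540, minus strand) had 3 counts in the parental group and 2 in the knockout group, which gives 1.48 as their scaled ratio (exact 95% interval 0.170 to 17.8, counting error only). A difference in these secretoglobin genes was not detectable at this depth.

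Levels were compared between genes only per kilobase of annotated exon. In parental tumours LCN2 had the highest mean, 426 ± 292 CPM per kb, followed by SLPI at 265 ± 30.9 (SD, n = 4 each), and their ranges overlapped. WFDC2 came next at 35.4 ± 16.3 CPM per kb, below SLPI without overlap and overlapping PI3 at 32.7 ± 9.02. BPIFB1 at 25.3 ± 23.0, LYZ at 12.3 ± 10.4 and PIGR at 2.18 ± 2.81 CPM per kb followed, each overlapping its neighbour. In knockout tumours SLPI was first at 254 ± 6.65 CPM per kb, then LCN2 at 143 ± 88.1, which overlapped it. PI3 at 55.1 ± 14.8 CPM per kb overlapped neither LCN2 above nor LYZ below. LYZ at 5.12 ± 3.24 and BPIFB1 at 2.89 ± 0.8293 CPM per kb overlapped each other, and WFDC2 was last at 0.138 ± 0.0871 CPM per kb, overlapping PIGR at 0.304 ± 0.190.

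Within each group the defence genes were often highest in the same tumour. Parental replicate 3 was the highest parental tumour for 5 of the 7 tested genes, WFDC2, PI3, LCN2, PIGR and BPIFB1, and for 24.6% of all 16219 tested genes. Knockout replicate 2 was the highest knockout tumour for all 7, and for 23.3% of all tested genes. For WFDC2 and SLPI the order of the knockout tumours carries little weight. WFDC2 had only 1 to 7 counts in each of them, and SLPI lay between 148 and 157 CPM. This description is of tumours within a group and was made after the values were seen. Without both tumours, 4 of the 7 genes were called, with PI3 at 0.68 and no longer called, and WFDC2 at -8.05, LCN2 at -1.51, PIGR at -1.78 and BPIFB1 at -2.47. LCN2, PIGR, BPIFB1 and LYZ also spread widely among parental tumours, with an SD on the log2 scale of 0.852 to 1.58 against a median of 0.198 over all tested genes.

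Profiles over the 8 tumours were then compared as log2(CPM + 0.5), centred on each gene's mean, by the root-mean-square distance over 13052 genes whose average log2 CPM was 1 or more. The 3 genes nearest to WFDC2 were ATP10B (distance 0.361), SLC44A4 (0.510) and MIR205HG (0.820). ATP10B, which encodes a phospholipid-transporting ATPase, went from 55.2 ± 21.5 to 0.708 ± 0.271 CPM (SD, n = 4 each), which the choice by likeness to WFDC2 leads to and which is given without a test. SLC44A4, a thiamine pyrophosphate transporter gene of epithelia, went from 89.4 ± 28.4 to 1.95 ± 1.07 CPM, and MIR205HG, the host gene of miR-205, from 35.8 ± 18.9 to 0.364 ± 0.338 CPM. Of the other defence genes BPIFB1 was the nearest to WFDC2, at rank 100 with a distance of 1.87.

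Nearest to LCN2 were SAA2 (distance 0.220), COL9A2 (0.242) and the long non-coding RNA gene AL391056.1 (0.346), and PIGR ranked 45 (0.549). SAA2 encodes an acute-phase serum amyloid A protein and shares near-identical sequence with SAA1, so its counts are uncertain. SAA2 was at 3.42, 2.73, 9.83 and 1.28 CPM in parental replicates 1 to 4 and at 0.607, 1.85, 0.513 and 0.280 CPM in knockout replicates 1 to 4. COL9A2, a collagen IX chain gene, was at 11.0, 8.74, 29.7 and 6.59 CPM and at 2.99, 5.61, 2.29 and 1.82 CPM in the same order. Parental replicate 3 and knockout replicate 2 were the highest of their groups for both, as for LCN2, which the choice by likeness to LCN2 leads to. SLPI was nearest to USP11, BTN2A1 and TAB1, with distances of 0.0344 to 0.0427.

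**Figure D2:**
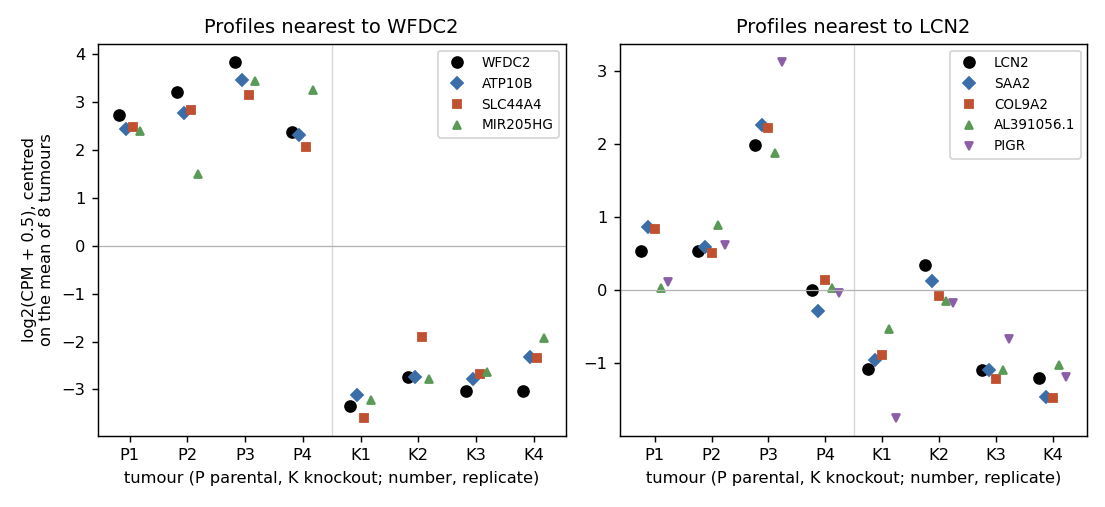
Log2(CPM + 0.5) centred on the mean of the 8 tumours (vertical) in each parental (P) and knockout (K) tumour (horizontal), for WFDC2 and the 3 genes nearest to it (left) and for LCN2, the 3 genes nearest to it and PIGR (right). The WFDC2 set splits by group, while the LCN2 set peaks in parental replicate 3 and, within the knockout, in replicate 2. The 3 nearest genes in each panel were chosen for this likeness.

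The neighbourhood of WFDC2 was examined because SLPI and PI3 lie 215 kb and 295 kb from its start. Of 91 annotated genes with a start within 1000 kb, 35 were tested. Among the 34 other than WFDC2, 4 were called higher, 5 lower and 25 were not called. Over all tested genes 13.0% were called higher and 14.1% lower. The median log2 fold change of the 34 was -0.11 against 0.00 for all tested genes. The lowest of these values was -1.73 and the highest 1.15. The closest tested gene on one side, PIGT, a subunit gene of the GPI transamidase 53.6 kb away, went from 209 to 148 CPM (log2 fold change -0.50, SE 0.0741, edgeR adjusted p = 0.000500). On the other side the closest was the ribosomal protein pseudogene RPS2P7 at 172 kb, which was below 1 CPM on average in both groups and not called. PLTP, a phospholipid transfer protein gene 442 kb away, had the largest change of these neighbours (-1.73, SE 0.1095, adjusted p = 1.46e-06). PABPC1L rose by 1.15 on the log2 scale (adjusted p = 0.000885), and TOMM34 (-0.59, adjusted p = 0.00292), DNTTIP1 (-0.36, adjusted p = 0.00865) and TTPAL (-0.37, adjusted p = 0.00975) fell in the same fit. The remaining called neighbours, PI3 among them, were all higher in the knockout.

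**Figure D3:**
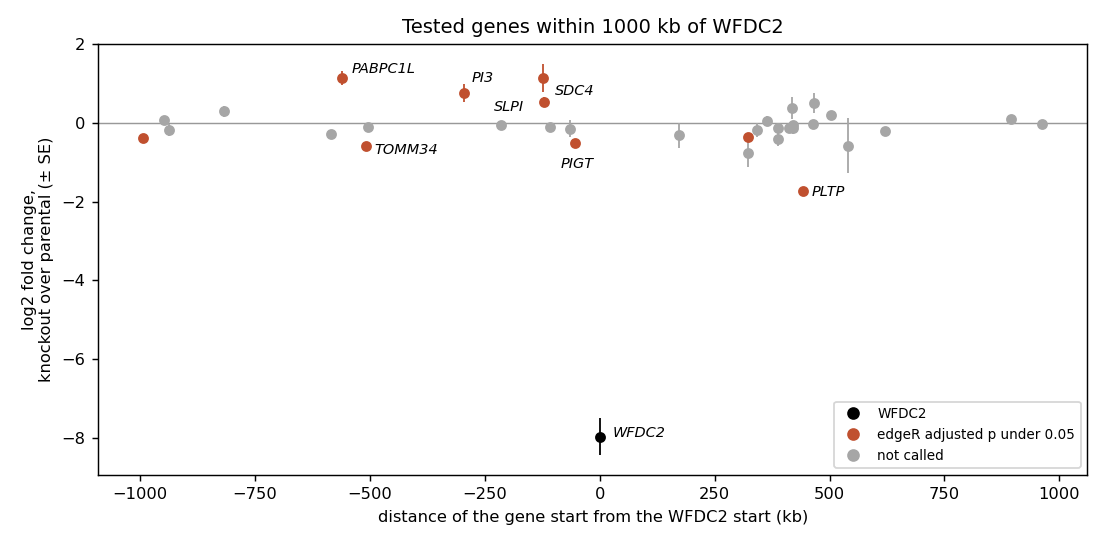
Log2 fold change, knockout over parental, with its SE (vertical) against the distance of each tested gene's start from the start of WFDC2 in kb (horizontal); orange points were called by edgeR and grey points were not. WFDC2 (black) is at -7.97, and the other 34 genes lie between -1.73 and 1.15.

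Relatives of the 10 genes and other genes of airway defence were counted from 12 lists, with the 10 genes themselves left out. Of 208 such genes, 115 were tested, and edgeR called 45 lower and 15 higher in the knockout, with a median log2 fold change of -0.33. Over all tested genes 14.1% were called lower and 13.0% higher. The lists were chosen with earlier results of these data known.

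Within the whey acidic protein family, 12 of the 20 other listed genes had no count in any tumour and 2 were tested. WFIKKN1, which encodes a secreted protein with several protease-inhibitor-type domains, rose by 0.89 on the log2 scale (edgeR adjusted p = 0.0180), from 5.43 ± 1.84 to 10.0 ± 1.63 CPM, but was not called without knockout replicate 1 (0.79). In the BPI fold and lipid-transfer list 3 of the 5 tested relatives fell and 1 rose. BPIFA1, a secreted surfactant-like protein of upper airways, was at 25.3 to 86.5 CPM in parental tumours and at 0.700 to 4.78 CPM in the knockout, and fell by 4.29 on the log2 scale (SE 0.542, edgeR adjusted p = 0.000163), or by 4.89 without knockout replicate 2. LBP, the lipopolysaccharide-binding protein gene, rose from 1.88 ± 0.841 to 6.04 ± 1.95 CPM (1.67, adjusted p = 0.00242). PLTP, also in this list, is described above.

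The secretoglobin, lysozyme, lipocalin and transferrin lists had few expressed relatives. SCGB3A2, the only other secretoglobin tested, went from 0.535 ± 0.300 to 1.25 ± 0.402 CPM, up by 1.23 on the log2 scale (edgeR adjusted p = 0.0355), but its groups overlapped and the call was lost in 6 of the 8 fits that left out 1 tumour. LYG1, a goose-type lysozyme gene, rose by 1.12 (adjusted p = 0.00915). Among 5 tested lipocalins, APOD fell from 4.51 ± 2.08 to 0.129 ± 0.0436 CPM (-5.06, SE 0.431, adjusted p = 1.07e-05) and AMBP from 4.17 ± 2.19 to 1.21 ± 0.353 CPM (-1.79, adjusted p = 0.00382). In the transferrin list MELTF was called at -0.66 (adjusted p = 0.0206) and lost its call without parental replicate 3 or any 1 of knockout replicates 1, 2 and 3, with values from -0.66 to -0.51.

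Genes listed for polymeric immunoglobulin transport were mostly lower as well. Of 7 tested genes in the list other than PIGR, 6 fell and 0 rose at adjusted p under 0.05. Their median log2 fold change was -0.44, and 0 rose at an unadjusted p under 0.05 too. The 6 included FCMR, an IgM receptor gene, which went from 1.16 ± 0.885 to 0.296 ± 0.101 CPM. RAB3D, a GTPase of secretory and transcytotic vesicles, fell from 113 ± 2.56 to 64.6 ± 5.95 CPM (-0.80, SE 0.0840, edgeR adjusted p = 4.25e-05). RAB25, an epithelial GTPase of apical recycling, fell from 134 ± 5.02 to 82.5 ± 8.62 CPM, and RAB11A from 275 ± 13.8 to 218 ± 5.32 CPM (-0.33, adjusted p = 0.00637).

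Of 18 other secreted antimicrobial and mucosal genes tested, 8 fell and 2 rose. TFF3, a trefoil peptide of mucus, fell from 279 ± 72.3 to 14.8 ± 6.14 CPM (-4.23, SE 0.290, edgeR adjusted p = 2.67e-06). DMBT1, a scavenger receptor protein that binds bacteria, fell from 305 ± 108 to 32.4 ± 3.40 CPM (-3.23, adjusted p = 3.62e-06), and AGR2, a disulfide isomerase used in mucin folding, fell from 882 ± 93.0 to 424 ± 78.3 CPM (-1.06, adjusted p = 0.000158). Other antiproteases were mostly not called, with 3 lower, 2 higher and 12 without a call. SERPINE2 rose from 31.4 ± 4.62 to 60.1 ± 8.03 CPM (0.94, adjusted p = 0.000270), while the cystatin genes CSTA (-1.70, adjusted p = 0.00290) and CST3 (-0.48, adjusted p = 0.00750) fell.

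Of 9 tested serine proteases that such inhibitors act on, 5 fell and 2 rose. TMPRSS11D, the airway trypsin-like protease gene, fell from 11.1 ± 2.39 to 0.614 ± 0.119 CPM (-4.17, SE 0.230, edgeR adjusted p = 7.14e-07), and PRSS8, the prostasin gene, from 89.5 ± 15.9 to 31.5 ± 2.94 CPM (-1.51, adjusted p = 1.16e-05). PRTN3, which encodes proteinase 3, a target of elafin, had 1 parental count and 72 knockout counts, a ratio of 72.8 (exact 95% interval 12.7 to 2915, counting error only). Over the 3 parental tumours without a count the knockout level was at least 17.6-fold higher, taking 3 counts over these tumours as the limit.

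Inputs to epithelial defence changed in both directions: among 20 tested genes of interleukin-17, interleukin-1, interleukin-22, Toll-like receptor and NF-kB signalling, 3 rose, 3 fell and 14 were not called. The receptor genes IL22RA1 (from 5.28 ± 1.23 to 15.7 ± 1.51 CPM, edgeR adjusted p = 5.28e-05) and IL1R1 (from 18.8 ± 2.61 to 38.3 ± 4.73 CPM, adjusted p = 0.000129) rose, and the kinase gene IRAK1 fell by 0.46 on the log2 scale (adjusted p = 0.00134). NFKBIZ, a nuclear cofactor of NF-kB at the LCN2 gene, and ZC3H12A, an RNase that limits inflammatory transcripts, were singled out after their values were seen. NFKBIZ was at 60.9, 46.1, 102 and 49.5 CPM in parental replicates 1 to 4 and at 40.9, 54.9, 45.6 and 38.0 CPM in knockout replicates 1 to 4, without a call. ZC3H12A was at 121, 93.6, 207 and 87.6 CPM and at 124, 184, 129 and 113 CPM in the same order, also without a call. Both were highest in parental replicate 3 and knockout replicate 2, as LCN2 was, and their part in its level was not tested.

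Of 27 tested transcription factors of airway epithelium, 14 fell, 2 rose and 11 were not called, with a median log2 fold change of -0.64. CREB3L1, an endoplasmic reticulum-bound factor of secretory cells, fell from 104 ± 22.6 to 9.89 ± 3.60 CPM (-3.40, SE 0.241, edgeR adjusted p = 3.32e-06). GRHL2, a factor of epithelial identity, fell from 83.5 ± 5.49 to 45.3 ± 2.70 CPM (-0.88, adjusted p = 2.23e-05), and SOX2 from 26.0 ± 5.27 to 9.51 ± 1.41 CPM (-1.45, adjusted p = 7.17e-05). Markers of ciliated cells were lower as well. Of 8 such markers 7 were tested, 6 were lower and 0 were higher at adjusted p under 0.05, and their summed level was 47.3 to 107 CPM in parental tumours and 13.8 to 21.2 CPM in the knockout, with parental replicate 3 the highest. Among 7 goblet markers 6 were tested and 4 were lower. These included BPIFB1, itself 1 of the 10 defence genes, and TFF3, already counted above. The sums over the 7 markers, 3748 to 9113 and 3458 to 4713 CPM, overlapped and were mostly MUC5B and MUC5AC. Basal cell markers did not all fall: of 6, 3 were tested, KRT14 and KRT15 were higher and TP63 was lower. The 6 summed to 19.9 to 28.4 CPM in parental tumours and to 34.7 to 80.5 CPM in the knockout. The highest sum was that of knockout replicate 4, where KRT5 was at 15.6 CPM and KRT14 at 37.4 CPM. The other knockout tumours summed to 34.7 to 41.0 CPM. Of 4 tested club cell markers 1 was higher and 1 lower, and of 4 tested alveolar type II markers 1 was lower. The part of cell composition in the defence genes was not tested.

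**Figure D4:**
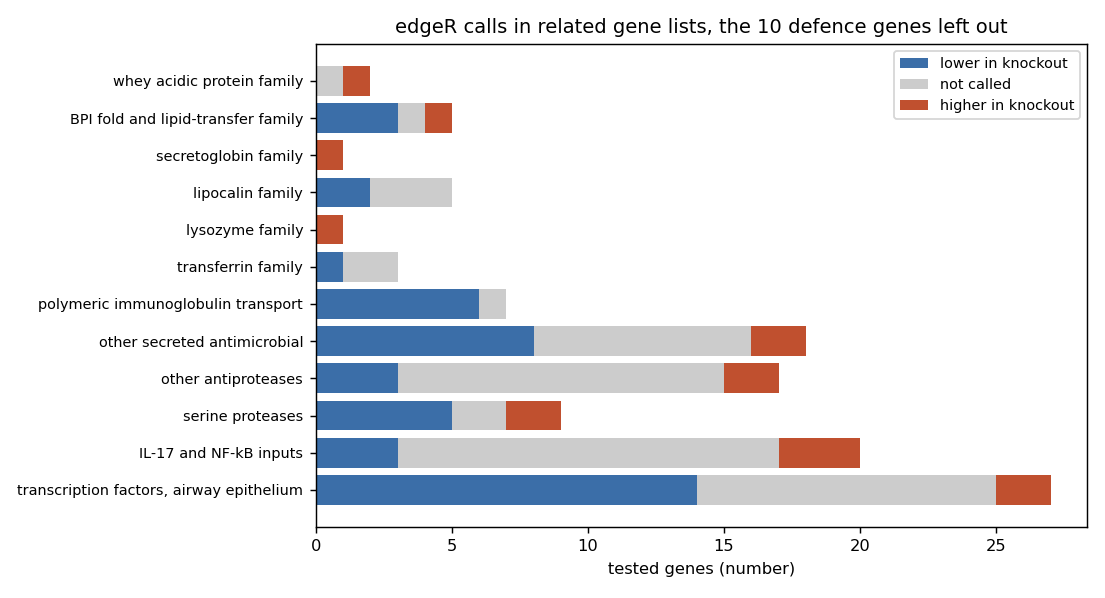
Number of tested genes (horizontal) in each of 12 related lists (vertical) that edgeR called lower (blue), did not call (grey) or called higher (orange) in knockout tumours, with the 10 defence genes left out. Transport genes (6 of 7 lower), other secreted antimicrobials (8 of 18) and transcription factors (14 of 27) hold the largest numbers of lower calls, though the shares of BPI fold relatives (3 of 5) and serine proteases (5 of 9) exceed those of the latter pair.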

How the data were processed

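Per the file contents, the authors deposited raw read counts per gene symbol, 1 file per tumour, in the layout of htseq-count. The submitters' processing notes name TopHat2 2.1.1, HTSeq 0.11.0 and the build hg38, with no role or order. The annotation, strand setting and any removal of mouse reads are not given in the sources used here. Without strand, reads of LYZ and SCGB1A1 cannot be told apart from those of an antisense gene that overlaps each. Over the 8 tumours the antisense gene at LYZ was given 21 counts and that at SCGB1A1 1 count. The 5 summary lines entered neither library sizes nor tests, and held 14.8% to 20.9% of reads.

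Genes were kept by filterByExpr (minimum count 10, minimum total 15), scaled by TMM and compared with edgeR 4.0.16 in R 4.3.3 (quasi-likelihood F-test, knockout over parental, no covariate). P-values were adjusted by Benjamini-Hochberg over 16219 genes. The test returns no SE, so each SE given is the absolute log2 fold change divided by the square root of the F statistic. It is approximate, above all where a group had few counts. The scripts were tested on simulated data. Positions and exon lengths are from GENCODE 29, which matched 218 of 218 list symbols. Named genes were SMARCA4, the 10 defence genes, up to 3 called genes with the smallest p per list, up to 6 called genes near WFDC2 with the closest on each side, and the 3 nearest profiles of WFDC2, LCN2 and SLPI. The members, lists, tests and alternatives were chosen with earlier results of these data known, and the motifs after the expression values were seen. Alternatives were DESeq2 1.42.0, limma-voom (limma 3.58.1), 3 scalings, 2 filters, the replicate number as a block, and leaving out each tumour.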

Additional observations from a re-analysis of the deposited data

Results flagged for a closer look

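Within each group of 4 tumours, the highest or lowest tumour was compared with the range of the group for the genes named in the text. It stood apart in 9.0 of 101.0 sets of 4 values, and about 5% of sets would do so by chance if values were normally distributed. CPM was used here without logs. A set with counts in only 1 tumour, as for SCGB1A1 and PRTN3, always stands apart. No excess over chance is read from this number. LCN2 was at 1370.0 CPM in parental replicate 3, against 345 to 504 CPM in the others, and at 440.0 CPM in knockout replicate 2, against 151 to 164 CPM. PIGR was at 27.9 CPM in parental replicate 3, against 2.68 to 4.49 CPM. CREB3L1 was at 138 CPM in the same tumour, against 89.7 to 97.5 CPM. SCGB1A1 was at 0.0893 CPM there, which is 2 counts, and at 0 in the other parental tumours. PRTN3 was at 0.0425 CPM in parental replicate 4, which is 1 count, and at 0 in the other parental tumours. RAB11A was at 295 CPM in parental replicate 4, against 266 to 270.0 CPM, and at 226 CPM in knockout replicate 3, against 215 to 216 CPM. PABPC1L was at 4.38 CPM in parental replicate 4, below the 6.84 to 7.32 CPM of the others.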

How the results depend on the processing

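Calls over all genes numbered 4385, and 3871 with the replicate number as a block. Same-numbered tumours did not deviate together (correlations of -0.043, -0.022, -0.187 and 0.086 for numbers 1 to 4), so they were not treated as paired. The block left 5 of the 10 genes called. Leaving out 1 tumour gave 2 to 6 called genes of the 10; the count was 2 without knockout replicate 1 and 3 without knockout replicate 4. DESeq2 called 4 and gave PIGR no adjusted p, and limma-voom called 4, without PIGR (adjusted p = 0.0737). LYZ was called in 1 fit on all tumours, without the low-count filter (adjusted p = 0.0350). WFDC2 and BPIFB1 were called in all 8 alternative fits on all tumours and all 8 that left out 1. Without parental replicate 3 and knockout replicate 2 together, chosen after the data were seen, 4 genes near WFDC2 were called in place of 9, with fewer tumours in the fit. TAB1, uncalled throughout, was between -0.087 (without parental replicate 4) and 0.019 (without parental replicate 2), and changed sign to 0.009 with upper-quartile scaling and 0.001 without those tumours together. With upper-quartile scaling 54.1% of calls were higher, against 47.9%. Depth limits what can be said of LTF, SCGB1A1 and SCGB3A1.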
